A study of Mus musculus with 119 samples.

Results

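The Fos family members Fos, Fosb, Fosl1 (which encodes FRA-1) and Fosl2 (FRA-2) were taken by symbol from a table of 18098 mouse genes, and all 4 passed the filter on low values. They were followed in bone marrow-derived macrophages of strain C57BL/6(NIMR), measured by RNA sequencing. LPS, the bacterial lipopolysaccharide sensed by TLR4, was given at 100 ng/ml. The WT arm holds 22 libraries, 6 each without LPS, at 0.5 h and at 1 h, and 4 at 2 h. Macrophages of genotype Nfkb1[SS/AA] make up 18 libraries, 6 each without LPS, at 0.5 h and at 1 h. In the PD0325901 arm WT cells received 0.1 µM of this inhibitor, with 3 libraries each at 10, 40 and 70 min of inhibitor without LPS and 6 each after 0.5 h and after 1 h with LPS, and 3 libraries of WT cells had DMSO for 10 min. In the RSKi47 arm WT cells received 2 µM of that inhibitor, with 4 libraries without LPS, 3 at 0.5 h and 4 each at 1 and 2 h. Inhibitor had been present for 10 min in those without LPS and for 40, 70 and 130 min in those with LPS. LPS responses in this arm thus run from 10 min of inhibitor, as it has no library without LPS at a later time. Macrophages of Map3k8[D270A] (24 libraries) and Elk1-/-Elk4-/- (16 libraries) are used for context. The labels tie no WT library to the Nfkb1[SS/AA], PD0325901 or RSKi47 experiments and give none with DMSO and LPS, so that arm and experiment cannot be told apart in a comparison of levels. The study's methods call the libraries biological replicates, and neither they nor the labels tie a library to an animal, so that p-values measure the spread between libraries. In the limma fit that spread is 1 estimate per gene over all 25 groups, not that of the groups compared. For Fosb at 0.5 h the group SD was 0.62 in WT and 0.02 with PD0325901.

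FOS proteins bind DNA as dimers with JUN or other bZIP proteins, and such dimers form the AP-1 transcription factors. Fos and Fosb are immediate early genes, transcribed soon after a stimulus without new protein synthesis, whereas FRA-1 and FRA-2 lack the strong transactivation domain of FOS and FOSB. In macrophages TLR4 activates the kinase TPL-2 (encoded by Map3k8), which p105 (the product of Nfkb1) holds inactive until the IKK complex phosphorylates p105. TPL-2 activates the kinases MKK1/2 (MEK), and these activate ERK1/2. ERK1/2 phosphorylates the ternary complex factors (TCFs), among them ELK1 and ELK4, ETS proteins that bind with SRF at Fos and Egr1, and it activates the kinase RSK. The SS/AA mutation removes the serines of p105 that IKK phosphorylates, PD0325901 inhibits MKK1/2 and RSKi47 inhibits RSK.

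In GRCm38 (mm10, the build that the submitters' processing notes name) the GENCODE annotation places Fos on the plus strand at chr12:85473890-85477273, Fosb on the minus strand at chr7:19302696-19310051, Fosl1 on the plus strand at chr19:5447547-5455946 and Fosl2 on the plus strand at chr5:32135801-32157842. The 250 bases before the RefSeq transcription start are printed for the 3 members found in the RefSeq promoter table (build GRCm38.p6), because TCFs and CREB, known substrates of ERK1/2 and RSK, bind ETS and CRE sequences. Capitals mark the ETS core GGAA and the CRE half-site TGACG on either strand, and bases run 5′ to 3′ on the strand of the gene. The windows lie at chr12:85473640-85473889 for Fos, chr7:19310046-19310295 for Fosb and chr5:32136222-32136471 for Fosl2. The annotations place the start of Fos at the same base, whereas the RefSeq start lies 6 bases inside the GENCODE gene for Fosb and 671 bases inside it for Fosl2, whose window is thus wholly within the GENCODE gene. Distances are counted from the RefSeq start, which is base 85473890 for Fos, 19310045 for Fosb and 32136472 for Fosl2.
Fos: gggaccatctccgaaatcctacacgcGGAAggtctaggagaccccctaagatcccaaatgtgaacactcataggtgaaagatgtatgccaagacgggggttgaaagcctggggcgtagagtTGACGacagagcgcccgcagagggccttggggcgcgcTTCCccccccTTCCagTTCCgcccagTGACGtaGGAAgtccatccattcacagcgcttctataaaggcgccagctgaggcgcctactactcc
Fosb: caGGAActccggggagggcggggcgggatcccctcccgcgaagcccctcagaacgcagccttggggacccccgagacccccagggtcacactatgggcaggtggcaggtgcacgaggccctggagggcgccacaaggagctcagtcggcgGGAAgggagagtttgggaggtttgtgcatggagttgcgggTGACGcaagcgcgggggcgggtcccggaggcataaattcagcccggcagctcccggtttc
Fosl2: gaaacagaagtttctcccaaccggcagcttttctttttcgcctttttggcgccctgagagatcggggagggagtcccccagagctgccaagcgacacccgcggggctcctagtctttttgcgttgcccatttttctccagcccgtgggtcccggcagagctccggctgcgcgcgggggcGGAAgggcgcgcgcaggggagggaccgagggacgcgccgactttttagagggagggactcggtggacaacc
The Fos window held 2 CRE half-sites, 129 and 66 bases before the start, and 5 ETS cores, the nearest 59 bases before it. The Fosb window held 1 CRE half-site, 60 bases before the start, and 2 ETS cores. The Fosl2 window held 1 ETS core, 71 bases before the RefSeq start, and no CRE half-site. Of all 32851 promoter windows of this length, 17.8% held the CRE half-site and 93.4% the ETS core. The full CRE TGACGTCA (in 1.55% of all windows), the AP-1 site TGANTCA (6.75%) and the CArG box bound by SRF (1.47%), searched on both strands, were not among the letters of the 3 windows. Only these 250 bases were searched, so that this says nothing of sites farther upstream or beyond the start.

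Values are given on the log2-like scale of the deposited table, which does not give the sequencing depth of each library. Fosb did not go below 6.50 on it, and 69 of its 118 values lay within 0.2 of the lowest, so that a Fosb value near 6.5 is the bottom of its range. The 4367 genes with a mean below 0 spanned a median range of only 0.0523 over all libraries, against 0.904 for genes with a mean of 8 to 12, so that folds of Fosb and Fosl1 may be understated. Fosb was listed at 57.73 in the RSKi47 library of replicate 1 at 1 h, a value treated as missing and dropped from every fit. In the same library Fos was 1.25 and Fosl2 1.09 above the mean of the other 3 RSKi47 libraries at 1 h, and the members' results that turn on it are given with and without it. Macrophage markers (8 of 8 tested) summed to 18.35 to 19.23 in every library, although some moved in each direction, 2 lower and 2 higher than in WT in Nfkb1[SS/AA] cells at 1 h, 2 and 1 with PD0325901 at 1 h (Mertk -0.56, Fcgr1 0.50) and 2 and 2 with RSKi47 at 2 h (Cd14 -0.75, Mertk 0.58). The summed level of 4 fibroblast markers was 5.04 to 5.98 in RSKi47 replicates 1 to 3 and 9.41, 7.32 and 6.49 in replicate 4 without LPS, at 1 h and at 2 h, against 3.88 to 4.91 in the libraries of all other arms. The 8 neutrophil markers summed to 6.24 to 7.74 in WT, 6.73 to 8.35 in Nfkb1[SS/AA], 7.29 to 8.81 with PD0325901, 7.08 to 8.59 with RSKi47, 6.14 to 7.54 in Map3k8[D270A] and 10.04 to 11.04 in Elk1-/-Elk4-/- libraries, and to 7.54 to 8.25 in the 3 DMSO libraries, which had no inhibitor and no LPS. Of the 5 that passed the filter, 3 were called higher than in WT in Nfkb1[SS/AA] cells at 1 h (median log2 difference 0.51), 5 with PD0325901 (1.61) and 5 with RSKi47 (0.92), where 20.5%, 16.4% and 26.5% of all genes tested were. All 5 were also called higher in DMSO cells than in unstimulated WT cells (median 1.34), where 12.5% of all genes were. The part of these markers in the results was not tested. None of 5 T and B cell markers passed the filter. In bulk samples fewer cells of a type and less RNA per cell cannot be told apart.

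In WT macrophages Fos, Fosb and Fosl2 were higher at 0.5 h than without LPS and Fosl1 at 1 h, and Fosl2 was highest at 2 h in replicates 4 to 6. Fos, the immediate early member with the highest level, stood at 10.34 to 10.98 (median 10.68) without LPS, 13.59 to 13.99 (median 13.86) at 0.5 h and 11.17 to 11.85 (median 11.55) at 1 h, and at 8.95, 9.04, 9.23 and 9.30 at 2 h. Every library at 0.5 h and 1 h was above every unstimulated one, and every library at 2 h was below. The log2 change from no LPS was 3.15 ± 0.11 (SE, adjusted p = 2.53e-47) at 0.5 h, 0.85 ± 0.11 (adjusted p = 2.77e-11) at 1 h and -1.55 ± 0.12 (adjusted p = 4.29e-22) at 2 h. Fosb rose from 6.59 to 6.67 (median 6.61) without LPS to 7.89 to 9.34 (median 8.65) at 0.5 h and 8.06 to 9 (median 8.46) at 1 h, and was at 6.60, 6.67, 6.64 and 6.73 at 2 h. Its values at 0.5 h lay in separate ranges by replicate number, 7.89, 7.97 and 8.37 in replicates 4 to 6 and 9.34, 9.18 and 8.94 in replicates 7 to 9.

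Fosl1 was low throughout, at 2.94 to 3.86 (median 3.21) without LPS, 3.11 to 3.98 (median 3.40) at 0.5 h, 4.57 to 5.78 (median 5.12) at 1 h and 3.28, 3.61, 3.71 and 3.87 at 2 h. The 1 h libraries were all above the others, with a log2 change from no LPS of 1.75 ± 0.13 (SE, adjusted p = 8.85e-22). Fosl2 climbed from 10.10 to 10.43 (median 10.10) without LPS to 10.24 to 11.04 (median 10.63) at 0.5 h, 11.16 to 11.36 (median 11.26) at 1 h and 11.68, 11.94, 12.45 and 11.27 at 2 h, a log2 change of 1.66 ± 0.12 (SE, adjusted p = 3.78e-23) at 2 h. In replicate 7, the 1 library of replicates 7 to 9 at 2 h, Fosl2 was at 11.28 at 1 h and 11.27 at 2 h, so that the climb from 1 to 2 h was seen in replicates 4 to 6. At an adjusted p below 0.05, 3 members (Fos, Fosb and Fosl2) were called higher at 0.5 h, where 8.19% of all genes tested were, 4 at 1 h (24.3%) and 1, Fosl2, at 2 h (34.9%), while Fos was lower at 2 h as were 37.1% of all genes. Per kilobase of the longest annotated transcript, the WT mean log2 levels at 0.5 h were 12.76 ± 0.16 (SD, n = 6) for Fos, 7.92 ± 0.33 for Fosl2, 6.70 ± 0.62 for Fosb and 2.61 ± 0.39 for Fosl1. At 1 h the order was the same. Without LPS and at 2 h Fosb lay at the bottom of its range, so that its place beside Fosl1 is not a measured order there, and Fos stood above Fosl2 without LPS. At 2 h Fosl2 (9.12 ± 0.49, SD, n = 4) stood above Fos (8.06 ± 0.16).

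**Figure D1:**
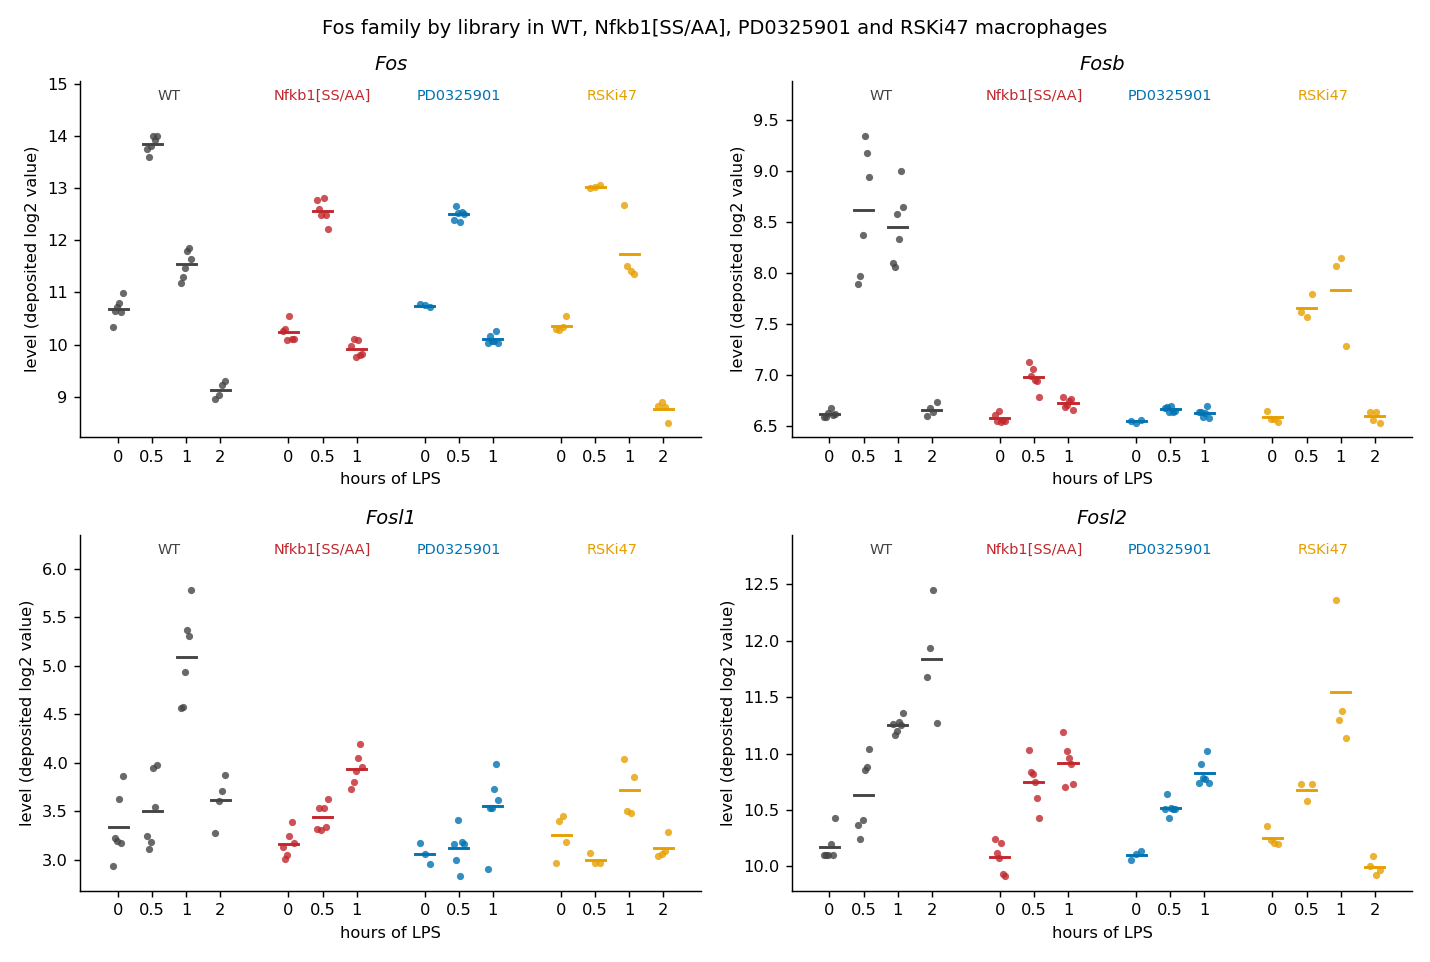
Level of each Fos family member (deposited log2 value) by hours of LPS in WT, Nfkb1[SS/AA], PD0325901 and RSKi47 macrophages (10 min of inhibitor at time 0 for each inhibitor). Points are libraries and bars are group means. At 0.5 h all 6 WT values of Fos (13.59 to 13.99) lie above every value of the other arms, and Fosb with PD0325901 stays between 6.58 and 6.69 at both LPS times.

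The Nfkb1[SS/AA] arm addressed what the block of p105 phosphorylation does. Fos and Fosb were lower than in WT at both LPS times and Fosl1 at 1 h, by more than 2-fold over all WT libraries, and Fosl2 differed less. Fos was at 12.22 to 12.80 (median 12.54) at 0.5 h and 9.76 to 10.11 (median 9.89) at 1 h. All 6 libraries were below all 6 WT libraries at each time. The log2 difference from WT was -1.28 ± 0.11 (SE, 2.42-fold, adjusted p = 4.43e-18) at 0.5 h and -1.62 ± 0.11 (3.07-fold, adjusted p = 1.39e-24) at 1 h. Without LPS Fos was at 10.09 to 10.55 (median 10.18), a range that overlaps that of WT, and the log2 difference was -0.45 ± 0.11 (SE, adjusted p = 0.000489).

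Fosb in Nfkb1[SS/AA] macrophages was at 6.78 to 7.13 (median 6.97) at 0.5 h and 6.66 to 6.78 (median 6.72) at 1 h, near the bottom of its range and below every WT library. The log2 difference was -1.64 ± 0.12 (SE, adjusted p = 1.90e-22) at 0.5 h and -1.73 ± 0.12 (adjusted p = 2.15e-24) at 1 h. At 0.5 h it was -1.10 against WT replicates 4 to 6 alone and -2.18 against replicates 7 to 9 alone. Fosl1 at 1 h was at 3.73 to 4.19 (median 3.94), below every WT library, with a log2 difference of -1.15 ± 0.13 (SE, adjusted p = 8.04e-12). That difference was -0.75 (adjusted p = 1.26e-06), less than 2-fold, against WT replicates 4 to 6 alone and -1.54 (adjusted p = 1.60e-16) against replicates 7 to 9. It still rose in this arm, by 0.78 ± 0.13 (SE, adjusted p = 4.88e-07) on the log2 scale over its unstimulated level. Fosl2 at 1 h was at 10.70 to 11.19 (median 10.93), overlapping WT, with a log2 difference of -0.34 ± 0.11 (SE, adjusted p = 0.00918). At 0.5 h its log2 difference was 0.11 (95% interval -0.10 to 0.33), but 0.40 (adjusted p = 0.00626), called higher, against WT replicates 4 to 6 alone and -0.18 (adjusted p = 0.244) against replicates 7 to 9.

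Of the members 1 was called lower without LPS, where 15.1% of all genes tested were, 2 at 0.5 h (15.6%) and 4 at 1 h (21.9%). With a fold of at least 2 added, 2 members were called lower at 0.5 h against 0.2% of all genes, and 3 at 1 h against 0.668%. The LPS response was also compared, that is, the change from no LPS in Nfkb1[SS/AA] minus that in WT, in which a constant offset between experiments cancels. Fos and Fosb were called lower in response at 0.5 h, where 0.117% of all genes were, and Fos, Fosb and Fosl1 at 1 h (4.3%). The difference in log2 response was -0.82 ± 0.15 (SE, adjusted p = 0.000476) at 0.5 h and -1.16 ± 0.15 (adjusted p = 2.57e-09) at 1 h for Fos. For Fosb it was -1.60 ± 0.16 (SE, adjusted p = 2.23e-12) and -1.69 ± 0.16 (adjusted p = 1.28e-14). For Fosl1 at 1 h it was -0.97 ± 0.19 (SE, adjusted p = 9.63e-05). At 1 h Fos in this arm differed from its own unstimulated level by -0.31 ± 0.11 (SE, adjusted p = 0.0113) on the log2 scale, whereas in WT it was above it.

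**Figure D2:**
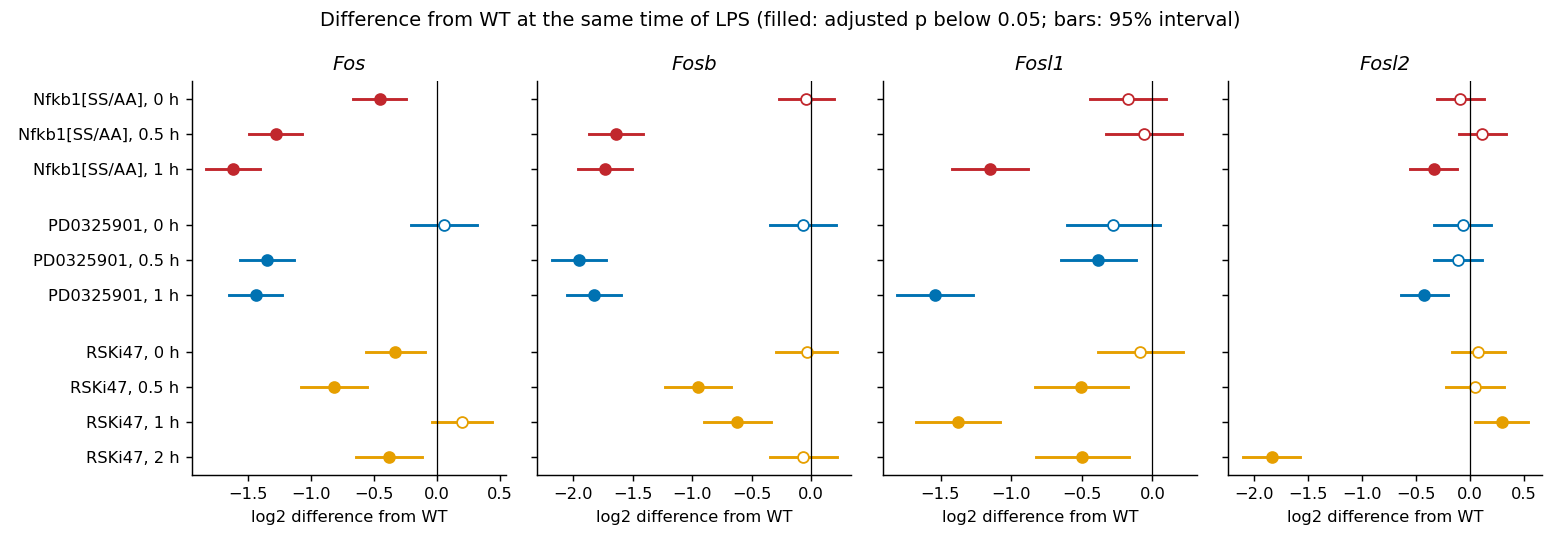
Log2 difference from WT at the same time of LPS for each member by arm and time, where time 0 of PD0325901 and of RSKi47 is 10 min of inhibitor. Points are limma estimates, bars 95% intervals, and filled points have an adjusted p below 0.05. Fos and Fosb lie between -1.95 and -1.28 in Nfkb1[SS/AA] and PD0325901 cells with LPS, and Fosl2 with RSKi47 at 2 h lies at -1.84.

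The PD0325901 arm addressed MKK1/2. Fos and Fosb were lower than in WT at both LPS times and Fosl1 at 1 h, and Fosb stayed at the bottom of its range. Fos was at 12.35 to 12.66 (median 12.51) at 0.5 h and 10.02 to 10.25 (median 10.07) at 1 h, every library below every WT library. The log2 difference from WT was -1.35 ± 0.11 (SE, 2.54-fold, adjusted p = 4.60e-19) at 0.5 h and -1.44 ± 0.11 (2.71-fold, adjusted p = 6.13e-21) at 1 h. Fosb was at 6.64 to 6.69 (median 6.66) and 6.58 to 6.69 (median 6.63). Its log2 difference from WT was -1.95 ± 0.12 (SE, adjusted p = 5.05e-27) at 0.5 h and -1.83 ± 0.12 (adjusted p = 2.99e-25) at 1 h. Its own log2 change with LPS in this arm was 0.13 (95% interval -0.15 to 0.41) and 0.09 (-0.19 to 0.37), which did not pass the test, although every library with LPS was above every one without.

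Fosl1 with PD0325901 was at 2.91 to 3.99 (median 3.58) at 1 h, below every WT library, with a log2 difference of -1.54 ± 0.13 (SE, adjusted p = 4.05e-17). At 0.5 h it was at 2.83 to 3.41 (median 3.16), overlapping WT, with a log2 difference of -0.38 ± 0.13 (SE, adjusted p = 0.0236). This was -0.06 (adjusted p = 0.761) against WT replicates 4 to 6 alone, and it did not pass the test without WT replicate 7 (-0.29, adjusted p = 0.0983) or 9 (-0.29, adjusted p = 0.0785) or without PD0325901 replicate 2 (-0.36, adjusted p = 0.0567) or 4 (-0.32, adjusted p = 0.0771). Nor did it pass with the PD0325901 libraries averaged in pairs by number, 1 with 4, 2 with 5 and 3 with 6 (-0.38, adjusted p = 0.0868). Fosl2 at 1 h was at 10.74 to 11.02 (median 10.78), below every WT library, with a log2 difference of -0.42 ± 0.11 (SE, adjusted p = 0.00133). Of the members 3 were called lower at 0.5 h, where 15% of all genes tested were, and 4 at 1 h (19.3%). With a fold of at least 2 there were 2 at 0.5 h against 0.192% of all genes, and 3 at 1 h against 0.409%.

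In PD0325901 without LPS, Fos was the 1 member called changed over time. At 10 min it stood at 10.77, 10.75 and 10.72, beside 10.81, 10.79 and 10.76 with DMSO, a log2 difference of -0.04 (95% interval -0.34 to 0.26). No member was called lower at 10 min than in unstimulated WT cells, where 12.3% of all genes were. At 40 min Fos was at 9.52, 9.44 and 9.35 and at 70 min at 9.14, 9.15 and 9.07, and the 3 times did not overlap. Against 10 min the log2 difference was -1.31 ± 0.15 (SE, 2.49-fold, adjusted p = 5.00e-11) at 40 min, where 2.26% of all genes were called lower, and -1.63 ± 0.15 (3.09-fold, adjusted p = 1.86e-15) at 70 min (3.47%). Fosl2 was at 9.91, 9.96 and 9.92 at 70 min against 10.06, 10.11 and 10.14 at 10 min, a log2 difference of -0.17 (95% interval -0.48 to 0.14). This did not pass the test, although every library at 70 min was below every one at 10 min. Over the same times 2 of the 5 tested neutrophil markers were called higher at 40 min than at 10 min (median 0.79), where 1.32% of all genes were, and 2 at 70 min (median 0.58, against 2.62%). DMSO was measured at 10 min only, so that time after the addition and the inhibitor cannot be told apart in the fall of Fos.

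The LPS response of Fos in this arm depended on its baseline. From unstimulated cells of the same time in PD0325901 (40 min for 0.5 h of LPS, 70 min for 1 h), Fos rose by 3.06 ± 0.13 (SE, adjusted p = 1.06e-38) and by 0.98 ± 0.13 (adjusted p = 3.16e-10) on the log2 scale, against 3.15 and 0.85 in WT cells, whose baseline was taken at time 0. The difference in response was -0.09 (95% interval -0.43 to 0.24) at 0.5 h and 0.13 (-0.21 to 0.47) at 1 h. From 10 min of PD0325901 the same difference was -1.41 (adjusted p = 1.15e-09) and -1.5 (adjusted p = 3.83e-11), and from 10 min of DMSO it was -1.45 (adjusted p = 2.72e-10) and -1.54 (adjusted p = 1.74e-11). Fosb responded less than in WT with every one of these baselines, by -1.87 ± 0.18 (SE, adjusted p = 3.59e-14) at 0.5 h and -1.74 ± 0.18 (adjusted p = 5.60e-13) at 1 h with the matched one. Fosl1 did so at 1 h, by -1.19 ± 0.21 (SE, adjusted p = 2.49e-05). With the matched baseline 1 member was called lower in response at 0.5 h, where 0.76% of all genes were, and 2 at 1 h (2.48%).

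**Figure D3:**
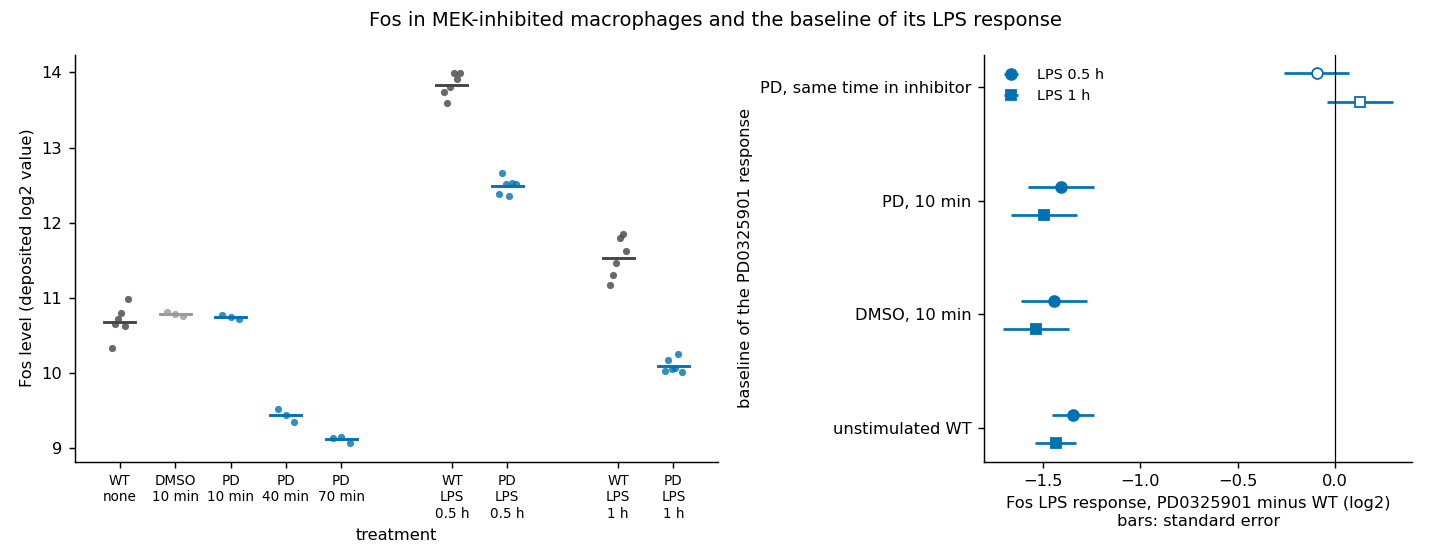
Left, Fos level (deposited log2 value) by library in WT, DMSO and PD0325901 cells, where bars are group means. Right, the Fos LPS response with PD0325901 minus that in WT (log2, bars are SE) for each choice of PD0325901 baseline. Without LPS Fos is 10.72 to 10.77 at 10 min and 9.07 to 9.15 at 70 min, and the difference in response at 1 h moves from 0.13 with the matched baseline to -1.5 with 10 min of inhibitor.

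The RSKi47 arm addressed RSK. Fos and Fosb were lower than in WT at 0.5 h, Fosl1 at 1 h and Fosl2 at 2 h. Fos was at 13, 13.01 and 13.06 at 0.5 h, below every WT library, with a log2 difference of -0.81 ± 0.13 (SE, 1.76-fold, adjusted p = 1.85e-07). At 1 h it was at 12.67, 11.50, 11.41 and 11.35 in replicates 1 to 4, of which replicates 2 to 4 lay within the WT range, with a log2 difference of 0.20 (95% interval -0.04 to 0.44). Without the library of replicate 1 that difference was -0.11 ± 0.11 (SE, adjusted p = 0.387), and with it kept but without replicate 3 or 4 it passed the test (0.31, adjusted p = 0.0458, and 0.33, adjusted p = 0.0253). It was also called higher against WT replicates 4 to 6 alone (0.42, adjusted p = 0.00725) and was -0.02 against replicates 7 to 9. At 2 h Fos was at 8.83, 8.89, 8.80 and 8.50, below every WT library, with a log2 difference of -0.38 ± 0.13 (SE, adjusted p = 0.0116), which did not pass the test without replicate 4 (-0.29, adjusted p = 0.0643). Without LPS it was at 10.30, 10.27, 10.33 and 10.54, overlapping WT, with a log2 difference of -0.33 ± 0.12 (SE, adjusted p = 0.017). That difference did not pass the test without RSKi47 replicate 2 (-0.30, adjusted p = 0.0546) or WT replicate 9 (-0.27, adjusted p = 0.0622).

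Fosb rose with RSKi47, to 7.62, 7.57 and 7.79 at 0.5 h and to 8.07, 8.15 and 7.28 at 1 h in replicates 2 to 4. Its log2 difference from WT was -0.95 ± 0.14 (SE, adjusted p = 1.95e-08) at 0.5 h, with every library below WT, and -0.62 ± 0.14 (adjusted p = 0.000119) at 1 h, with overlap. The value at 1 h rests on 3 libraries, without that of replicate 1, in which Fos and Fosl2 stood high. The exact permutation test on them gave p = 0.119. The difference at 0.5 h was -0.42 (adjusted p = 0.00106) against WT replicates 4 to 6 alone and -1.49 (adjusted p = 8.33e-20) against replicates 7 to 9, and the one at 1 h did not pass the test without RSKi47 replicate 4 (-0.34, adjusted p = 0.0565). Fosl1 at 1 h was at 4.04, 3.50, 3.48 and 3.85, below every WT library, with a log2 difference of -1.38 ± 0.15 (SE, adjusted p = 4.12e-13), and of -1.48 ± 0.16 (SE, adjusted p = 8.01e-13) without the library of replicate 1. At 0.5 h Fosl1 was at 3.07, 2.97 and 2.97, with a log2 difference of -0.50 ± 0.16 (SE, adjusted p = 0.00844), a call lost against WT replicates 4 to 6 alone (-0.18, adjusted p = 0.32). The call was also lost in the fit of the RSKi47 and WT arms alone (-0.50, adjusted p = 0.0647) and with the replicate number as a block across arms (-0.05, adjusted p = 0.773). At 2 h Fosl1 was at 3.04, 3.06, 3.09 and 3.29, overlapping WT, with a log2 difference of -0.50 ± 0.16 (SE, adjusted p = 0.00821). That call was lost in the fit of the RSKi47 and WT arms alone (-0.50, adjusted p = 0.0631) and with the replicate number as a block across arms (-0.23, adjusted p = 0.119), and the exact permutation test gave p = 0.0571.

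Fosl2 was lower than in WT at 2 h in the RSKi47 arm, by more than any other member at any time when all WT libraries were used. Its levels there were 10.00, 10.09, 9.92 and 9.97, against 11.68, 11.94, 12.45 and 11.27 in WT, and the groups did not overlap. The log2 difference was -1.84 ± 0.13 (SE, 3.57-fold, adjusted p = 7.47e-22). It was -1.83 without replicate 4, the replicate with the highest fibroblast marker sum. Replicates 1 to 3 at 2 h still summed to 5.51, 5.67 and 5.32 in these markers, against at most 4.91 in the libraries of all other arms. The part of fibroblast markers in the Fosl2 value was not tested. Against WT replicate 7 alone, the 1 library of WT replicates 7 to 9 at 2 h, the Fosl2 difference was -1.27, a smaller difference than that of Fosl1 at 1 h against replicates 7 to 9 (-1.77). At 2 h all 5 tested neutrophil markers were called higher than in WT (median 1.51), where 27.5% of all genes were, and their part in the Fosl2 value was not tested. At 0.5 h Fosl2 had been at 10.73, 10.58 and 10.73, a log2 difference from WT of 0.05 (95% interval -0.22 to 0.31) that was called higher against WT replicates 4 to 6 alone (0.34, adjusted p = 0.0349), and at 1 h at 12.36, 11.30, 11.38 and 11.14, and its log2 change from no LPS was -0.25 (95% interval -0.52 to 0.01) at 2 h, where that of WT cells was 1.66. From 1 to 2 h its log2 change was -1.55 ± 0.13 (SE, adjusted p = 1.63e-18) with RSKi47, or -1.28 ± 0.13 (SE, adjusted p = 1.63e-15) without the library of replicate 1 at 1 h, and 0.58 ± 0.12 (SE, adjusted p = 1.88e-05) in WT. At 1 h Fosl2 was called higher than in WT, by 0.29 ± 0.12 (SE, adjusted p = 0.0378), which was lost without WT replicate 5 (0.27, adjusted p = 0.0616), and without the library of RSKi47 replicate 1 the difference was 0.02 ± 0.12 (SE, adjusted p = 0.894). The log2 LPS response of Fosl2 at 2 h differed from that of WT by -1.91 ± 0.18 (SE, adjusted p = 6.49e-15). That difference was -2.17 against WT replicates 4 to 6 alone and -1.27 against replicates 7 to 9.

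Of the members 1 was called lower with RSKi47 without LPS, where 26.3% of all genes tested were, 3 at 0.5 h (24.5%), 2 at 1 h (26.3%, and 1 higher where 26.5% were) and 3 at 2 h (24.6%). With a fold of at least 2 there was 1 lower member, Fosl1, at 1 h (at -0.98, less than 2-fold, against WT replicates 4 to 6 alone) against 0.576% of all genes, and 1, Fosl2, at 2 h against 1.1%. In response to LPS, taken from 10 min of RSKi47, Fosb was lower at 0.5 h by -0.92 ± 0.19 (SE, adjusted p = 0.0239), where 0.0251% of all genes were called. No baseline at the same time in RSKi47 exists, so that the part of time in the inhibitor in these responses was not tested. Fosl1 was lower in response at 1 h by -1.29 ± 0.21 (SE, adjusted p = 5.86e-06), where 3.27% were, and Fosl2 at 2 h, where 10.4% were. With the replicate number within each arm as a block, Fosb was also lower in response at 1 h (-0.57, adjusted p = 0.0197) and Fosl1 at 2 h (-0.56, adjusted p = 0.00684). Without the block the Fosb difference at 1 h was -0.58 ± 0.19 (SE, adjusted p = 0.0515), and -0.32 (adjusted p = 0.55) without RSKi47 replicate 4. The Fosb response at 0.5 h did not pass the test against WT replicates 4 to 6 alone (-0.40, adjusted p = 0.916, beside -1.44, adjusted p = 5.44e-11 against replicates 7 to 9), nor without WT replicate 7, 8 or 9 or RSKi47 replicate 1 or 2, where it was -0.87 to -0.78. Fos was higher in response at 1 h by 0.53 ± 0.17 (SE, adjusted p = 0.0458), where 2.26% of all genes were called higher, and by 0.21 ± 0.14 (SE, adjusted p = 0.537) without the library of replicate 1. It also did not pass the test without WT replicate 4, 5, 6 or 9 or RSKi47 replicate 2, where it was 0.48 to 0.57.

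**Figure D4:**
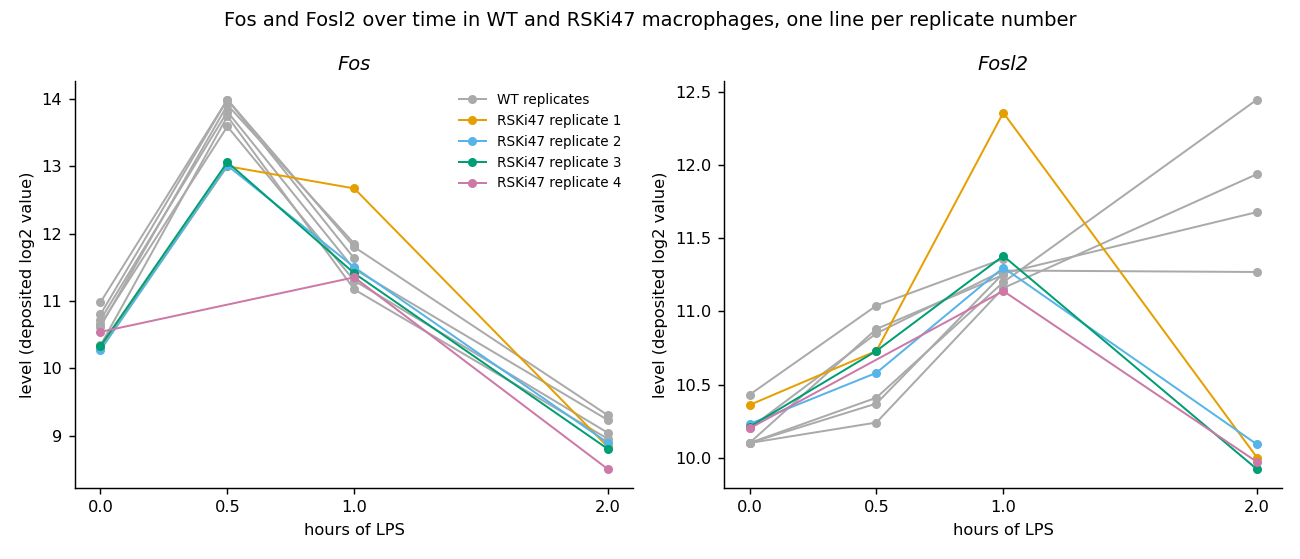
Fos and Fosl2 level (deposited log2 value) by hours of LPS in WT (grey) and RSKi47 (coloured) libraries, joined by replicate number, where replicate 4 of RSKi47 has no library at 0.5 h. Replicate 1 at 1 h stands above the others (12.67 for Fos, 12.36 for Fosl2), and at 2 h all 4 RSKi47 values of Fosl2 (9.92 to 10.09) lie below all WT values (11.27 to 12.45).

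The arms were compared with each other at the same time of LPS. Between PD0325901 and Nfkb1[SS/AA] cells Fos differed by -0.07 (95% interval -0.28 to 0.14) at 0.5 h and 0.18 (-0.03 to 0.39) at 1 h on the log2 scale. With PD0325901 Fosb was the 1 member called lower at 0.5 h, by -0.31 ± 0.12 (SE, adjusted p = 0.0316), where 15% of all genes were, and Fosl1 at 1 h, by -0.39 ± 0.13 (SE, adjusted p = 0.0185), where 17.4% were. RSKi47 cells had more Fos and Fosb than PD0325901 cells at 0.5 h, by 0.53 ± 0.13 (SE, adjusted p = 0.000406) and 1.00 ± 0.14 (adjusted p = 4.31e-09), where 25.1% of all genes were called higher. At 1 h Fos, Fosb and Fosl2 were higher, where 28.6% of all genes were. Without the RSKi47 library of replicate 1 these differences at 1 h were 1.32 ± 0.11 (SE, adjusted p = 1.58e-19) for Fos, 1.2 ± 0.14 (adjusted p = 6.54e-12) for Fosb and 0.45 ± 0.12 (adjusted p = 0.000847) for Fosl2, and Fos and Fosl2 differed by 1.64 and 0.72 with it. Fosl1 at 1 h differed by 0.16 (95% interval -0.13 to 0.46) between these inhibitors. Against Nfkb1[SS/AA] cells, RSKi47 cells at 0.5 h had Fos and Fosb higher, by 0.46 ± 0.13 (SE, adjusted p = 0.00242) and 0.69 ± 0.14 (adjusted p = 3.37e-05), where 21.6% of all genes were, and Fosl1 lower, by -0.44 ± 0.16 (SE, adjusted p = 0.0221), where 23.1% were. At 1 h Fos, Fosb and Fosl2 were higher, where 28.3% of all genes were, Fos by 1.82 with the library of replicate 1 and by 1.5 ± 0.11 (SE, adjusted p = 1.29e-22) without it. Without it Fosb was higher by 1.11 ± 0.14 (SE, adjusted p = 1.08e-10) and Fosl2 by 0.36 ± 0.12 (adjusted p = 0.00734), the latter beside 0.63 with it.

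For context, Map3k8[D270A] macrophages, which carry a catalytically inactive TPL-2, had Fos at 12.57 to 12.93 (median 12.85) at 0.5 h and 10.17 to 10.57 (median 10.37) at 1 h, with log2 differences from WT of -1.04 ± 0.11 (SE, adjusted p = 7.41e-13) and -1.16 ± 0.11 (adjusted p = 8.98e-16). Elk1-/-Elk4-/- macrophages had Fos at 13.02, 13, 12.90 and 13.17 at 0.5 h, a log2 difference of -0.82 ± 0.12 (SE, adjusted p = 2.08e-08), and at 11.36, 11.27, 11.27 and 11.27 at 1 h, a log2 difference of -0.24 ± 0.12 (SE, adjusted p = 0.0773). Without LPS Fos was called higher in these cells, by 0.36 ± 0.12 (SE, adjusted p = 0.00898), where 28.3% of all genes were, and its LPS response at 1 h was called lower than that of WT, by -0.60 ± 0.17 (SE, adjusted p = 0.0429), where 1.05% were. In the same cells all 5 tested neutrophil markers were called higher than in WT, with a median log2 difference of 3.79 at 0.5 h, 3.64 at 1 h and 4.38 at 2 h, where 23.5%, 28.3% and 28.7% of all genes were, and their part in the Elk1-/-Elk4-/- values was not tested. Fosl2 at 2 h was lower than in WT in Map3k8[D270A] cells, by -1.49 ± 0.12 (SE, adjusted p = 9.47e-19), and in Elk1-/-Elk4-/- cells, by -1.44 ± 0.13 (SE, adjusted p = 3.37e-16), beside -1.84 with RSKi47, and all of these share the WT libraries. Fosl2 was at 10.13 to 10.59 in Map3k8[D270A] and 10.29 to 10.54 in Elk1-/-Elk4-/- cells. WT replicates 4 to 6 were at 11.68, 11.94 and 12.45 and replicate 7 at 11.27, so that these differences too are smaller against replicate 7. Against Map3k8[D270A] at 2 h, Fosl2 with RSKi47 differed by -0.34 ± 0.12 (SE, adjusted p = 0.0157). At 1 h Fos and Fosb were lower in Nfkb1[SS/AA] than in Map3k8[D270A] cells, by -0.46 ± 0.11 (SE, adjusted p = 0.000205) and -0.45 ± 0.12 (adjusted p = 0.000835), where 24.6% of all genes were. With PD0325901 Fos, Fosb and Fosl1 were lower than in Map3k8[D270A] cells at 1 h, by -0.28 ± 0.11 (SE, adjusted p = 0.0283), -0.54 ± 0.12 (adjusted p = 9.24e-05) and -0.53 ± 0.13 (adjusted p = 0.00099), where 22.2% were.

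Genes around the members were counted from lists of AP-1 partners and TCF targets. Of 14 genes for AP-1 partners (JUN, ATF, BATF and MAF proteins), 5 were lower and 3 higher than in WT in Nfkb1[SS/AA] cells at 1 h, where 21.9% of all genes tested were lower and 20.5% higher, with a median log2 difference of -0.01 beside -0.00631 over all genes. Junb (-0.90) and Maff (-0.56) were among the lower and Atf4 (0.75) and Atf3 (0.56) among the higher. With PD0325901 8 were lower and 3 higher at 1 h, against 19.3% and 16.4% of all genes (median -0.21 beside -0.0149), with Maff (-0.74) and Junb (-0.52) lower and Atf3 (0.38) and Atf4 (0.28) higher. With RSKi47 6 were lower and 4 higher at 1 h, against 26.3% and 26.5% of all genes (median -0.05 beside 0.00152). At 2 h 8 were lower and 1 higher, against 24.6% and 27.5% (median -0.22 beside 0.017). Jdp2 (-1.03) and Batf (-0.84), which encode bZIP proteins that lack a transactivation domain, were the lowest at 1 h, and Jun (0.51), the usual partner of FOS, and Mafk (0.28) the highest. Batf was at -0.78 without LPS, -0.81 at 0.5 h and -1.79 at 2 h. Without the RSKi47 library of replicate 1 at 1 h, 5 of these genes were lower and 4 higher (against 24.5% and 24.7% of all genes), with Jdp2 at -1.03, Batf at -0.87, Jun at 0.49 and Mafk at 0.25.

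Of 12 genes listed as TCF targets 11 were tested, and 9 were lower and none higher than in WT in Nfkb1[SS/AA] cells at 1 h (median -1.02), and likewise 9 and none with PD0325901 (median -1.16). Over all genes 21.9% were called lower in Nfkb1[SS/AA] cells and 19.3% with PD0325901. Egr1, an immediate early zinc finger transcription factor, was the lowest in both, at -3.06 and -4.22, followed by Egr3 at -2.60 and -2.42. At the other end Klf6 (0.14) and Mcl1 (-0.01) in Nfkb1[SS/AA] cells, and Klf6 (-0.01) and Egr2 (-0.05) with PD0325901, did not pass the test. With RSKi47 2 of these genes were lower and 2 higher at 1 h, against 26.3% and 26.5% of all genes (median 0.05), with Ier3 at -0.58 and Dusp5 at -0.55, Egr1 at 1.01, and Nr4a1 at 0.38 (adjusted p = 0.1). Without the library of replicate 1, 2 were lower and 2 higher (median -0.06), with Ier3 at -0.67, Dusp5 at -0.78, Egr1 at 0.91 and Nr4a1 at -0.23 (adjusted p = 0.23). Of 6 TCF and SRF genes 4, 3 and 3 were lower at 1 h in the Nfkb1[SS/AA], PD0325901 and RSKi47 arms, and 0, 0 and 1 higher. Of 11 genes of the TPL-2 cascade 3, 0 and 3 were lower and 1, 0 and 1 higher, where 21.9%, 19.3% and 26.3% of all genes were lower and 20.5%, 16.4% and 26.5% higher. Without the RSKi47 library of replicate 1, 3 TCF and SRF genes and 2 cascade genes were lower with RSKi47, and 1 and 1 higher.

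The genes whose pattern was most like that of each member were ranked by Pearson correlation over the 25 group means, a description over groups that share experiments. For Fos these were Jun (0.935), Btg2 (0.900) and Spry2 (0.885), and for Fosb Egr3 (0.877), Egr1 (0.851) and Nr4a1 (0.832). For Fosl1 they were Apbb3 (0.884), Srf (0.875) and Tfe3 (0.868), and for Fosl2 Errfi1 (0.874), Hilpda (0.868) and Zfp719 (0.836). Among the members r was highest between Fos and Fosb (0.66) and lowest between Fos and Fosl1 (0.14).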

How the data were processed

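RNA sequencing covered mouse bone marrow-derived macrophages, 1 library a sample. The authors deposited 1 table of normalised log2-like expression values for 18098 genes, and their transformation is not stated in the sources at hand. The submitters' processing notes name STAR 2.5.1b, RSEM 1.2.29, DESeq2 1.10.1 and the build mm10. No counts were used, and the study's methods give only a typical yield, so that the depth of each library is not known here. Values above 25 (1 value) were treated as missing. Testing kept the 11971 genes that reached a linear value of 10 in 3 libraries or more. A mean for each of 25 groups was fitted to every library with limma 3.58.1 (R 4.3.3), without a trend, and adjusted p-values (Benjamini-Hochberg) run over all genes tested, with a call at 0.05. The script was tested on simulated data. Folds are 2 to the power of the log2 difference. Exact permutation tests were two-sided and used SciPy 1.17.1.

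Groups came from the sample labels. The genes named are the 4 members, the 2 genes of a list with the largest difference in each direction at 1 h, and the 3 genes most like each member. The members and lists were chosen with earlier results of these data known. Alternatives were the scaling, filter, variance model, samples in the fit, WT replicates, baseline, replicate block and PD0325901 libraries with LPS averaged in pairs (1 with 4, 2 with 5 and 3 with 6). At 0.5 h these pairs were the closest of their group, with root-mean-square distances of 0.1236, 0.1247 and 0.1118. At 1 h they lay at 0.1311, 0.117 and 0.1248, where 2 with 6 was at 0.1285. Whether they share a culture was not tested, and the main fit counts them as separate libraries. Within an arm, deviations from the group mean of same-numbered libraries correlated above 0.1 in 30 of 30 pairs in WT and 18 of 18 in Nfkb1[SS/AA], 20 of 21 in RSKi47 and 14 of 33 in PD0325901. The median correlations were 0.483, 0.401, 0.318 and 0.0708. The number therefore pairs libraries within WT and Nfkb1[SS/AA] and, in all but 1 pair, RSKi47, from the data and not the labels. The main fit does not use this pairing, whereas the fit with arm and number as a block does.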

Additional observations from a re-analysis of the deposited data

Results flagged for a closer look

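Over the 4 members in 12 groups of 4 to 6 libraries, 47 sets of values were examined. In 3 of them a library lay far from the others of its group, and chance alone gives about 1 in 20 sets. These were RSKi47 replicate 1 at 1 h for Fos (12.67), RSKi47 replicate 1 without LPS for Fosl2 (10.36) and WT replicate 9 without LPS for Fosl2 (10.43).

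The LPS response of Fos differed from WT in Nfkb1[SS/AA] cells by -0.82 at 0.5 h and -1.16 at 1 h, and with RSKi47 at 1 h by 0.53, a call lost without the RSKi47 library of replicate 1 (0.21). The Fos response with PD0325901 exceeded that in Nfkb1[SS/AA] cells by 0.73 at 0.5 h and 1.29 at 1 h, from the baselines at 40 and 70 min of inhibitor. The sign turned with the baseline, since from 10 min of inhibitor that difference was -0.58 (adjusted p = 0.059) and -0.33 (adjusted p = 0.379), and from 10 min of DMSO -0.62 (adjusted p = 0.0681) and -0.37 (adjusted p = 0.506), all by limma and chosen after seeing the data. The response with RSKi47 exceeded that in Nfkb1[SS/AA] cells by 1.69 at 1 h (1.38 without that library).

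The Fosb response differed from WT by -1.60 and -1.69 in Nfkb1[SS/AA] cells and by -1.87 and -1.74 with PD0325901 at 0.5 and 1 h, and by -0.92 with RSKi47 at 0.5 h. It was higher with RSKi47 than with PD0325901 by 0.96 at 0.5 h and 1.16 at 1 h, and than in Nfkb1[SS/AA] cells by 1.11 at 1 h. The RSKi47 baseline was 10 min of inhibitor and the PD0325901 baseline 40 or 70 min. From 10 min of PD0325901 (limma, chosen after seeing the data) the Fosb differences were 0.97 (adjusted p = 0.00466) and 1.17 (adjusted p = 2.61e-05). From that baseline Fos, not called from the later ones, also responded more with RSKi47, by 0.92 (adjusted p = 0.00371) and 2.02 (adjusted p = 5.87e-15). Among WT libraries the Fosb response at 0.5 h was 1.04 higher in replicates 7 to 9 than in replicates 4 to 6 (limma adjusted p = 0.0382), and what separates these replicates was not tested.

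The Fosl1 response at 1 h differed from WT by -0.97 in Nfkb1[SS/AA] cells, -1.19 with PD0325901 and -1.29 with RSKi47, all against the same WT libraries. The Fosl2 response at 2 h differed from WT by -1.91 with RSKi47. It was -2.17 against WT replicates 4 to 6 alone and -1.27 against replicates 7 to 9, which have 1 library at 2 h.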

How the results depend on the processing

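Over 1472 alternative values of the members, 1335 kept direction and call, 66 lost a call, 26 gained one, 40 changed sign with no call in either setting (-0.24 to 0.26) and 5 reversed. The Fos LPS response difference of PD0325901 at 1 h reversed to -1.5 with a baseline of 10 min of inhibitor, -1.54 with DMSO and -1.44 with unstimulated WT cells (added after seeing the data). With the replicate number as a block across arms, Fosl1 reversed to 0.31 for Nfkb1[SS/AA] at 0.5 h and 0.33 for RSKi47 without LPS. Across arms the libraries share only a number (pairs above 0.1 were 1 of 9 for Nfkb1[SS/AA], 3 of 6 for PD0325901 and 0 of 3 for RSKi47). With the block of arm and number, Fosb with RSKi47 at 1 h and Fosl1 at 2 h passed the test in response (-0.57, adjusted p = 0.0197, and -0.56, adjusted p = 0.00684), making 2 members lower at each time. No other call changed in the LPS responses of the Nfkb1[SS/AA], PD0325901 and RSKi47 arms against WT. Map3k8[D270A] and Elk1-/-Elk4-/- responses were not refitted with it.

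Members called lower changed in number by over 1.5 times as follows, and the cause was not tested except where a fold of 2 was required. Against WT replicates 7 to 9 only, 2 were lower in Nfkb1[SS/AA] and 1 with 10 min of PD0325901 without LPS, and the exact permutation test also called 1 (Fosb) at 10 min of PD0325901. With RSKi47 without LPS 0 were lower in the fit of the 2 arms alone, against WT replicates 4 to 6 only and with the block across arms, and leaving out replicates gave 0 to 1. With RSKi47 at 1 h the exact permutation test called 1 and leaving out replicates gave 1 to 2, and at 2 h the 2 arms alone gave 1. In response, PD0325901 at 0.5 h had 2 lower from 10 min of inhibitor, 2 from DMSO and 3 from unstimulated WT cells, and at 1 h it had 3 from 10 min of inhibitor, 3 from DMSO and 4 from unstimulated WT cells. In response RSKi47 at 0.5 h had 0 in the 2 arms alone and against WT replicates 4 to 6, and 0 to 1 leaving out replicates. At 1 h it had 2 with median centring or WT replicates 7 to 9 only, and 1 to 2 leaving out replicates, and at 2 h 2 against WT replicates 4 to 6. With a 2-fold threshold 0 were lower in Nfkb1[SS/AA] without LPS, 0 with RSKi47 without LPS, at 0.5 h and in response at 0.5 h, and 1 with RSKi47 at 1 h, at 2 h and for the Nfkb1[SS/AA] response at 0.5 h.

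Single calls also turned on the WT replicates. Against replicates 7 to 9 only, Fosl1 in Nfkb1[SS/AA] (-0.38, adjusted p = 0.024) and Fosl2 with PD0325901 (-0.40, adjusted p = 0.00616) became lower at 0.5 h, and against replicates 4 to 6 only, Fosl2 became higher at 0.5 h in Nfkb1[SS/AA] (0.40, adjusted p = 0.00626) and with RSKi47 (0.34, adjusted p = 0.0349), as did Fos with RSKi47 at 1 h (0.42, adjusted p = 0.00725). Fosl1 with PD0325901 at 0.5 h lost its call in 11 alternatives. Fos in Nfkb1[SS/AA] at 1 h kept its call, as did Fosl2 with RSKi47 at 2 h. Without the depth of each library, the compressed scale limits Fosb near 6.5 and Fosl1.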
